A study of Mus musculus with 27 samples.

Results

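The 10 genes described here, of 25209 listed, lie at 4 imprinted loci of the mouse genome: Grb10 with its neighbours Cobl and Ddc, Igf2r with Airn, Slc22a2 and Slc22a3, Plagl1 alone, and Nnat with its host gene Blcap. They were taken by name from 8 deposited tables that compare 2 Zfp512b knockout (KO) clones, KO4 and KO8, with WT cells at 4 stages. The choice was made with KO-against-WT results of these tables known, so every KO-against-WT value of a member below is a description. Standard errors and limma calls of members against WT are given where known, and nothing is read from them as a test.

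RNA was sequenced from V6.5 cells, a mouse embryonic stem cell line, in 27 libraries. Naive cells (Day 0, medium with LIF and 2 inhibitors) gave 3 libraries each of WT, KO4 and KO8. Primed cells (Day 2), neural progenitor cells (NPCs, Day 10, embryoid bodies with retinoic acid) and cardiomyocyte cultures (CMs, Day 7.5, embryoid bodies with vitamin C) gave 2 of each. CM here names the culture and not a cell type, as the paper reports that both KO clones did not properly form beating CMs. In both KO lines a transcription terminator was inserted after exon 3 of Zfp512b together with an mCherry or a puromycin resistance gene. Each KO line is 1 clone, and WT cells were not taken through this editing and selection, so effects of the clone, of the selection and of Zfp512b loss cannot be told apart. The labels do not say whether libraries of a group came from separate cultures, so spreads between them may be technical.

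Imprinted genes are transcribed mainly from the copy inherited from 1 parent, because the control region of a locus carries DNA methylation set in the egg or the sperm. At such a locus a protein-coding gene and a noncoding RNA are often used from opposite parental copies. Many of these genes act on fetal growth: Grb10 and Igf2r restrain signalling by insulin and insulin-like growth factors, and Plagl1 is a zinc finger factor that regulates other imprinted genes. The counts here do not separate the parental copies. In bulk RNA, fewer cells of a type and less RNA per cell cannot be told apart either.

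In the mm9 annotation Grb10 lies on the minus strand of chromosome 11 at 11830511-11938686, with Ddc at 11714104-11798047 and Cobl at 12136611-12364963 on the same strand. Igf2r is on the minus strand of chromosome 17 at 12875272-12962530. Airn starts inside it at 12934177 and runs to 13052988 on the plus strand, so that the 2 genes overlap for 28.354 kb with 0 shared exon bases. Slc22a2 (plus strand, 12777055-12821331) and Slc22a3 (minus strand, 12612838-12700570) lie at lower coordinates of that chromosome. Plagl1 is on the plus strand of chromosome 10 at 12810497-12851500. Nnat, on the plus strand of chromosome 2 at 157385814-157388258, lies whole within Blcap (minus strand, 157382098-157397010), again with 0 shared exon bases. Whether the reads were counted by strand is not stated, so reads from the overlapping parts of Airn and Igf2r, or of Nnat and Blcap, cannot be told apart with certainty.

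**Figure D1:**
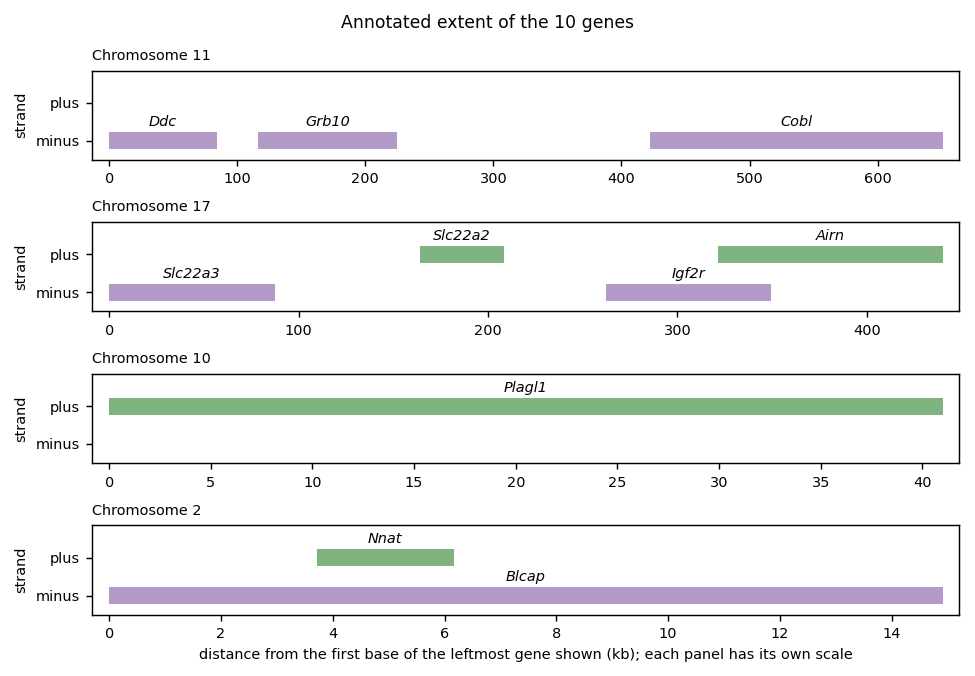
Extent and strand of the 10 genes, 1 panel per chromosome, with distance from the first base of the leftmost gene in kb (each panel has its own scale). Airn overlaps the start of Igf2r on the opposite strand for 28.354 kb, and Nnat lies inside Blcap.

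The deposited base mean is the mean, over the libraries of WT and 1 clone, of reads divided by a library's size factor. Whole reads per library could be recovered from the 2 base means of a stage for genes under a base mean of 70 (naive) or 1000 (other stages). This gave reads in every library for 4 members at the naive, 7 at the primed, 4 at the NPC and 6 at the CM stage, with the other members known from base means alone. Levels are given in RPM, reads per megaread of the stage's summed base means. Where only base means are known, both tables share the WT libraries, so the difference of their base means comes from the clones, and the ratio of the base means is the least fold by which 1 clone exceeds the other. Direction and size against WT, and the spread between libraries, cannot be had for these.

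The depth, counted on genes, was 34.3 to 39.6 megareads per library in naive cells and 15.1 to 19.35 megareads at the other stages. Zfp512b, the targeted gene, stood at 53.8 and 56.6 RPM in primed WT cells, 11.1 and 12.7 in KO4 and 10.7 and 8.93 in KO8. In CMs it stood at 62.0 and 58.8 in WT, 10.2 and 11.6 in KO4 and 8.59 and 9.59 in KO8, which is 18.0% and 15.1% of the WT mean. In naive cells and NPCs it is known from base means alone, which do not check the label. In NPCs the KO8 libraries differed from each other (SD of log2 ratios over genes 0.446) more than the other pairs did (0.239 and 0.279), and library 2 of KO8 was the further of them from every WT and KO4 library, at 0.502 to 0.746 against 0.375 to 0.556 for library 1. CM libraries of different genotypes differed by up to 1.53 on this measure.

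Cell type markers moved with genotype in NPCs and CMs, and their part in the members' values was not tested. In CMs the summed naive markers (5 of 7 with reads) were at 60.3 to 75.7 RPM in WT, 134 to 188 in KO4 and 24.5 to 25.8 in KO8. By limma, 4 of these 5 were called higher in KO4 and 1, Klf4, lower. Neural progenitor markers (3 of 7) summed to 0.982 to 1.80 in WT, 3.61 to 5.52 in KO4 and 0.852 to 1.04 in KO8. The base means of all 7 neural progenitor markers summed to 537 with KO4 and 206 with KO8 libraries. Myl2, a ventricular myosin light chain and the 1 cardiomyocyte marker of 8 with reads recovered there, was at 50.4 and 62.6 in WT, 0.114 and 0 in KO4 and 9.16 and 11.4 in KO8. The base means of all 8 cardiomyocyte markers summed to 1731 with KO4 and 2536 with KO8 libraries. Dcn, the 1 fibroblast marker of 4 with reads there, was at 2.74 and 3.82 in WT, 1.82 and 1.05 in KO4 and 14.7 and 10.3 in KO8, and the base means of all 4 summed to 965 with KO4 and 2662 with KO8 libraries. Endoderm markers (2 of 6) ran from 20.2 to 46.6 in WT, 9.16 to 12.0 in KO4 and 49.8 to 52.6 in KO8. Of these 2 genes, that order rested on Foxa2, at 36.1 and 17.2 in WT, 2.28 and 4.95 in KO4 and 41.6 and 41.5 in KO8. Cubn, the other gene, was at 10.5 and 2.95 in WT, 6.88 and 7.05 in KO4 and 11.0 and 8.29 in KO8. Both clones thus overlapped WT for Cubn. The base means of all 6 endoderm markers summed to 188 with KO4 and 399 with KO8 libraries, and 5 of them were 1.5-fold or more higher with KO8. The order of groups seen for Foxa2 was also that of Dcn, Ddc and Slc22a3 in CMs. Blcap had the order of Myl2 (WT, KO8, KO4 from high to low), Cobl ran WT, KO4, KO8, and for Airn KO8 overlapped WT. Whether markers and members are linked was not tested. In NPCs the neural progenitor markers (5 of 7) summed to 23.7 to 33.9 in WT, 67.5 to 84.1 in KO4 and 57.3 to 138 in KO8. Of the 5 endothelial and blood markers, only the blood genes Hbb-bh1 and Hba-x had reads in NPCs. Summed, these 2 were at 15.0 to 17.0 in WT, 1.67 to 2.43 in KO4 and 27.7 to 28.5 in KO8. The base means of all 5 summed to 329.5 with KO4 and 306.2 with KO8 libraries.

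**Figure D2:**
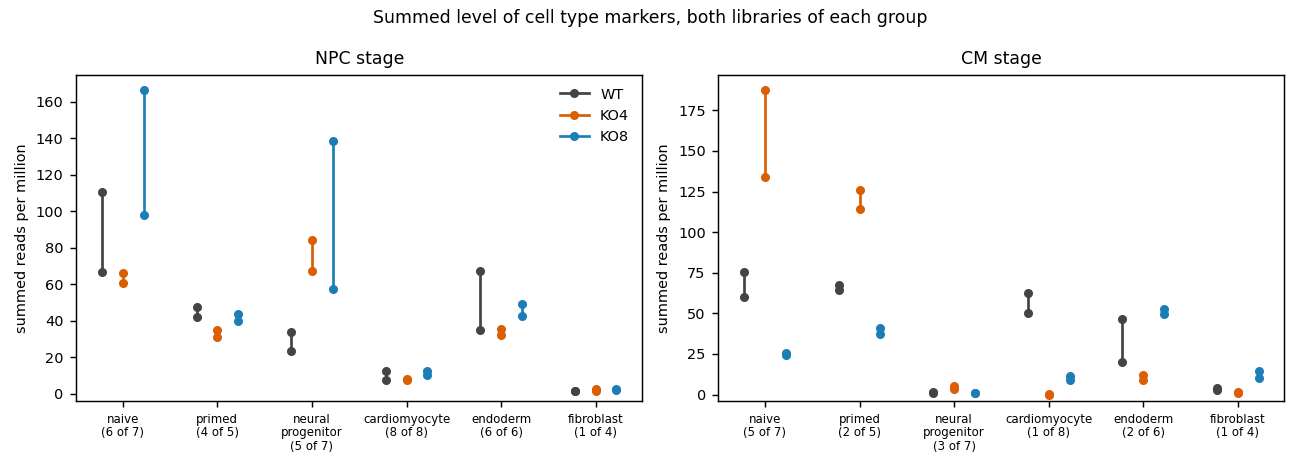
Summed level (RPM, linear axis) of marker lists in the 2 libraries of each group at the NPC and CM stages, each point a library; the numbers under each list give how many of its genes had reads. KO4 has the highest naive and primed marker sums in CMs, and the neural progenitor sums of both clones exceed WT in NPCs. The primed sum in CMs rests on 2 genes. Of these Pou3f1 was at 14.6 and 16.9 in WT and 68.8 and 76.9 in KO4. Lef1 was at 49.6 and 50.6 in WT and 45.4 and 49.1 in KO4.

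Grb10 encodes an adaptor protein that binds the insulin and IGF1 receptors and dampens their signalling. In both tables its base mean was lowest in naive cells, then primed cells, NPCs and CMs in that order, where NPCs and CMs are separate cultures made from stem cells and not successive stages. With KO4 libraries the base mean came to 55.7 RPM for naive cells, 121 for primed cells, 645 for NPCs and 864 for CMs. With KO8 libraries it was 86.8, 205, 1105 and 1533. The CM value was thus 15.5 and 17.7 times the naive value, on a scale set within each stage.

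KO8 held more Grb10 than KO4 at all 4 stages. The base means differed 1.56-fold at the naive, 1.70-fold at the primed, 1.71-fold at the NPC and 1.78-fold at the CM stage, and KO8 exceeded KO4 by at least these folds. As a difference between the clones' mean levels this came to 62.2 RPM for the naive, 169 for the primed, 920 for the NPC and 1339 for the CM stage. No library values and hence no error are known for these differences, and the stages share the same 2 clones. Of all genes that reached a base mean of 100 in either table, 0.403% differed by 1.5-fold or more between the 2 tables at the naive, 0.131% at the primed, 1.08% at the NPC and 11.8% at the CM stage. In CMs the central 95% of these genes had ratios from 0.506 to 2.04, so that Grb10 was inside that range there and outside it at the other 3 stages. Past that fold were 1 of 6 members at the naive stage (Grb10), 2 of 6 at the primed (Grb10, Nnat), 4 of 8 at the NPC (Grb10, Igf2r, Airn, Plagl1) and 5 of 8 at the CM stage (Grb10, Ddc, Igf2r, Airn, Plagl1). These counts stem from the tables the members were chosen on, so nothing is read from them.

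**Figure D3:**
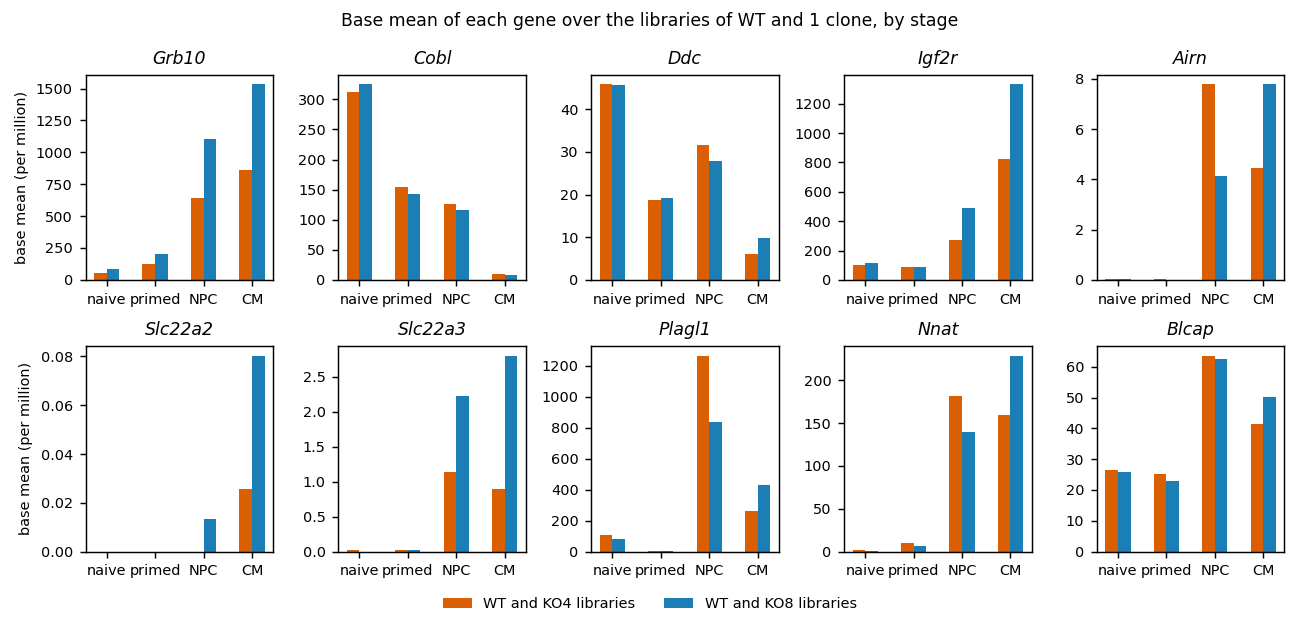
Base mean of each of the 10 genes in RPM, with WT and KO4 libraries (orange) and with WT and KO8 libraries (blue), at the naive, primed, NPC and CM stages; linear axes from 0, 1 scale per panel, no error bars since a base mean is a single value. The Grb10 bar with KO8 libraries is the taller at every stage, and the Cobl bars go from 313 and 325 in naive cells to 10.2 and 8.04 in CMs.

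Cobl, an actin nucleator and the gene upstream of Grb10, had the opposite order of stages. Its base means (KO4 and KO8 tables) were 313 and 325 RPM for naive cells, 155 and 142 for primed cells, 126 and 116 for NPCs and 10.2 and 8.04 for CMs. In CMs, where reads were recovered, WT libraries held 13.1 and 12.5 RPM, KO4 libraries 8.48 and 6.88 and KO8 libraries 3.33 and 3.29. All libraries of both clones were below both WT libraries, and KO8 below KO4. The means were 0.60 times WT in KO4 (log2 −0.74 ± 0.18 SE) and 0.26 times WT in KO8 (−1.93 ± 0.20).

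Ddc, on the other side of Grb10, encodes aromatic L-amino acid decarboxylase, which makes dopamine and serotonin, and has a transcript used from the paternal copy in the embryonic heart. Its base mean was highest in naive cells (45.9 and 45.7 RPM) and lowest in CMs (6.06 and 9.78). Primed cells held 18.7 and 18.1 in WT, 19.7 and 18.0 in KO4 and 19.4 and 20.8 in KO8. KO4 overlapped WT there and KO8 was above it, at 1.09 times WT with an SE (0.12 on the log2 scale) close to the difference of 0.13. NPCs held 31.5 and 27.1 in WT, 32.9 and 34.9 in KO4 and 27.1 and 25.7 in KO8, the last just under WT, and without library 2 of KO8 the value was 27.1.

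In CMs the clones lay on opposite sides of WT for Ddc. WT libraries held 7.24 and 8.19 RPM, KO4 libraries 4.78 and 4.02 and KO8 libraries 11.6 and 12.1. KO4 was at 0.57 times WT (log2 −0.80 ± 0.23 SE) and KO8 at 1.54 times (0.62 ± 0.17), so KO8 held 2.69 times the level of KO4.

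Igf2r encodes the mannose 6-phosphate receptor, which carries lysosomal enzymes to lysosomes and clears the growth factor IGF2 from the cell surface. It is expressed from the maternal copy, while the long noncoding RNA Airn, read from the paternal copy in the opposite direction, silences the paternal Igf2r. Base means of Igf2r were lowest in primed cells (85.9 and 90.0 RPM), slightly higher in naive cells (103 and 114), and higher in NPCs (269 and 490) and CMs (826 and 1333). In naive and primed cells the base means were 1.10-fold and 1.05-fold apart, inside the range of the central 95% of all genes, and with WT unknown the clones may differ by more. In NPCs KO8 exceeded KO4 at least 1.82-fold, by 442 RPM, and in CMs at least 1.61-fold, by 1012 RPM.

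Airn was near 0 in stem cells and present in differentiated cells. In naive cells it had 2, 2 and 0 reads in the WT libraries, 0 in each KO4 library and 2, 0 and 1 in KO8. In primed cells 1 KO4 library had 2 reads and every other library 0, which allows up to 0.165 to 0.199 RPM per library (3 counts, counting error only). NPC libraries held 4.18 and 4.10 RPM in WT, 14.6 and 8.27 in KO4 and 4.02 and 4.29 in KO8.

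KO4 was thus above WT in NPCs, at 2.76 times (log2 1.39 ± 0.23 SE), with a wide gap between its 2 libraries. KO8 overlapped WT, at 1.00 times, and was at 4.02 without its library 2. In CMs WT libraries held 9.10 and 6.99 RPM, KO4 libraries 0.739 and 0.991 and KO8 libraries 7.18 and 7.83. The KO4 libraries were here far below all others, at 10.8% of WT (log2 −3.14 ± 0.33), while KO8 overlapped WT at 93.3%.

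Igf2r and Airn did not keep 1 order between the clones. In NPCs Airn was 2.74 times higher in KO4 than in KO8 while Igf2r was higher in KO8. In CMs both were higher in KO8, Airn 8.68-fold and Igf2r at least 1.61-fold. These are values of 2 libraries per clone for Airn and of base means for Igf2r, and their relation was not tested.

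Slc22a2 and Slc22a3, organic cation transporters silenced by Airn on the paternal copy in the placenta, stood low. Slc22a2 had 0 reads in all naive and primed libraries, 1 read over 6 NPC libraries and at most 2 reads in any CM library. Slc22a3 had 4 reads in 1 naive KO4 library, 2 in 1 primed WT library and 0 in the other libraries of these stages.

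Slc22a3 was measurable in NPCs and CMs. NPC libraries held 1.98 and 1.62 RPM in WT, 0.173 and 0.808 in KO4 and 0.751 and 4.52 in KO8. KO4 was below WT, at 0.27 times (log2 −2.04 ± 0.57 SE), and the KO8 libraries lay on either side of WT, with 0.751 left without library 2. CM libraries held 1.40 and 1.69 in WT, 0.114 and 0.350 in KO4 and 4.68 and 3.41 in KO8. Here the groups were separate in both directions, KO4 at 0.15 times WT (−2.60 ± 0.59) and KO8 at 2.62 times (1.35 ± 0.32). The KO4 values rest on 8 reads over both CM libraries and 16 over both NPC libraries.

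**Figure D4:**
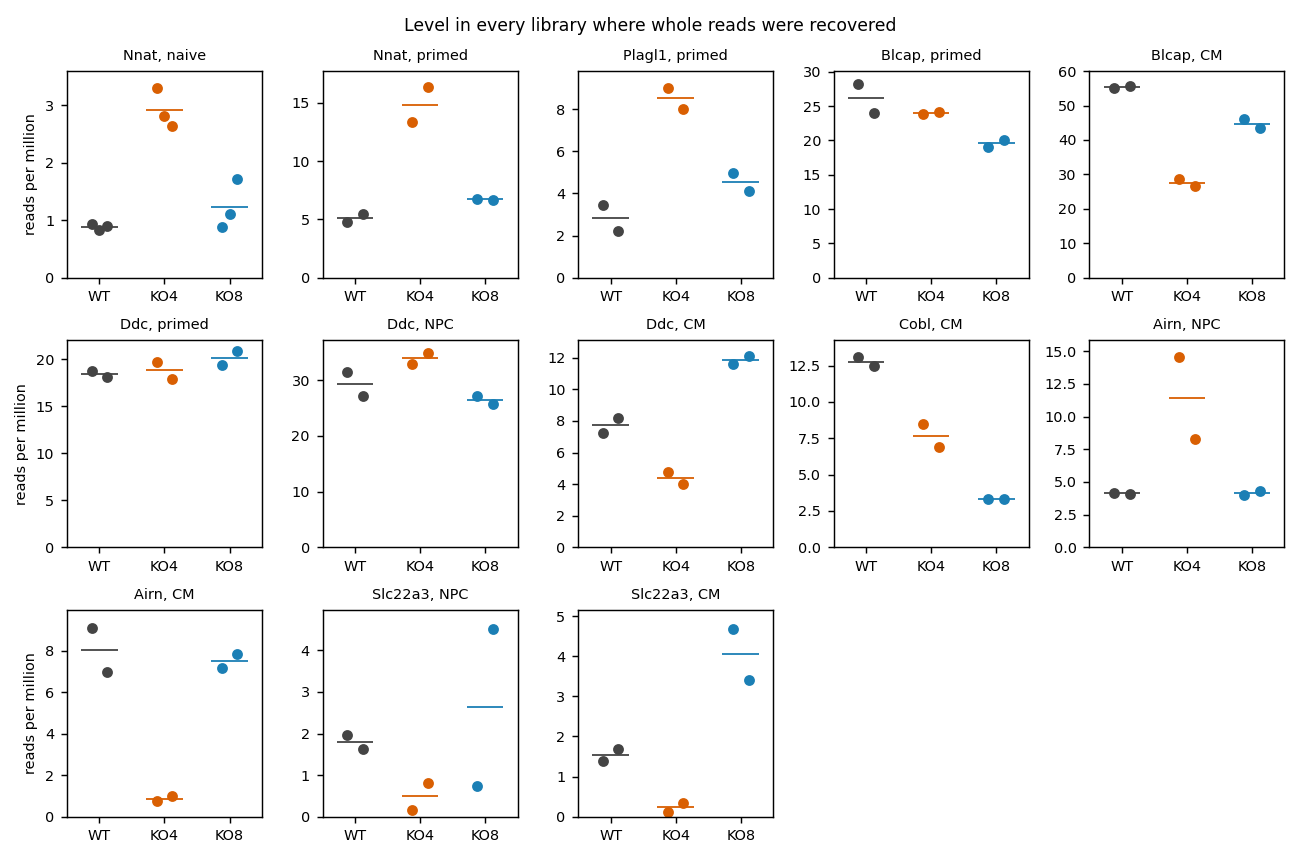
Level in RPM of the members in every library where whole reads were recovered and the gene was above a few reads, by genotype (points are libraries, horizontal bars group means, linear axes from 0). In CMs KO4 is below WT for all 5 genes shown, while KO8 is above WT for Ddc and Slc22a3, below it for Blcap and Cobl and overlaps it for Airn.

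Plagl1, used from the paternal copy, encodes a zinc finger transcription factor that stops cell division and regulates an imprinted gene network. Its window of 300 bases around the annotated 5′ end (chr10:12810247-12810546, plus strand, mm9) is shown with that of Nnat. Of the members with reads in primed cells, these are the 2 for which KO4 was above WT there. Grb10, Cobl and Igf2r had no reads recovered in primed cells and so no such comparison. Capitals mark the hexamer TGCCGC read on the other strand (GCGGCA), the letters that the imprint-keeping factor ZFP57 binds when methylated.
Plagl1: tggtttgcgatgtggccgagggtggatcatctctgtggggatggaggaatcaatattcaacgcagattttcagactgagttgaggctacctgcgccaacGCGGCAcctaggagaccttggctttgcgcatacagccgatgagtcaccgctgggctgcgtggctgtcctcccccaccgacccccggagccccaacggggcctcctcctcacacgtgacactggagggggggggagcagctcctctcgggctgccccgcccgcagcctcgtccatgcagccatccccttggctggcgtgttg
Nnat: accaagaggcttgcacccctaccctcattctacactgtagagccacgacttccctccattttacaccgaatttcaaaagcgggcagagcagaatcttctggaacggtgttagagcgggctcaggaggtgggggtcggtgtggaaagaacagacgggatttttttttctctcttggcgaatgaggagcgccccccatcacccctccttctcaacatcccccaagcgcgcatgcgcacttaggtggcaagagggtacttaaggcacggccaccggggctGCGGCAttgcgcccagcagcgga

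The Nnat window is chr2:157385564-157385863 on the plus strand. The hexamer, searched on both strands, occurred once in the windows of 3 of the 10 members (Plagl1, Nnat and Slc22a2) and in 13.6% of 22375 windows of protein-coding genes. The Plagl1 window held 19 CG dinucleotides, the Nnat window 17, and those of Igf2r and Cobl 33 and 42, against a median of 11 over all windows. The windows of Slc22a2 (8), Grb10 (7), Ddc (5), Slc22a3 (5), Airn (3) and Blcap (2) held fewer than this median. A match is a run of letters and does not show binding, and no methylation was measured.

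Plagl1 was lowest in primed cells and highest in NPCs, where its base mean was 222 and 227 times the primed one (KO4 and KO8 tables). In primed cells WT libraries held 3.470 and 2.198 RPM, KO4 libraries 9.02 and 8.03 and KO8 libraries 4.96 and 4.10. Both clones were above WT and KO4 above KO8. KO4 was at 3.01 times WT (log2 1.60 ± 0.22 SE) and KO8 at 1.60 times (0.70 ± 0.26).

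At the other stages only base means of Plagl1 are known. KO4 exceeded KO8 at least 1.37-fold in naive cells (109 against 79.4 RPM) and at least 1.51-fold in NPCs (1264 against 837). In CMs the order was the opposite, KO8 exceeding KO4 at least 1.66-fold (433 against 261).

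Nnat, neuronatin, is a small proteolipid of the endoplasmic reticulum membrane in neurons, used from the paternal copy. It was lowest in naive cells, with 0.934, 0.833 and 0.900 RPM in WT, 3.31, 2.82 and 2.63 in KO4 and 0.879, 1.10 and 1.72 in KO8. Each KO4 library was above each WT library, at 3.29 times on average (log2 1.68 ± 0.21 SE), and KO8 overlapped WT at 1.39 times (0.41 ± 0.28). These naive reads were lost under a stricter rule for recovering reads.

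Primed cells held more Nnat and the same order of groups. WT libraries were at 4.79 and 5.44 RPM, KO4 libraries at 13.3 and 16.3 and KO8 libraries at 6.77 and 6.68. KO4 stood at 2.90 times WT (log2 1.52 ± 0.16 SE) and KO8 at 1.32 times (0.39 ± 0.20), both above the WT libraries.

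In NPCs Nnat is known from base means of 181 (KO4 table) and 139 RPM (KO8 table), so that KO4 exceeded KO8 at least 1.30-fold. In CMs they were 159 and 228, and KO8 exceeded KO4 at least 1.43-fold. Nnat and Plagl1 thus had KO4 as the higher clone at the naive, primed and NPC stages and KO8 in CMs, whereas Grb10 had KO8 as the higher clone at every stage and Igf2r in NPCs and CMs.

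Blcap, a small membrane protein linked to cell death whose intron holds Nnat, varied least across stages among the members present at every stage, with base means 2.54-fold and 2.74-fold apart between primed cells and NPCs. Primed libraries held 28.3 and 23.9 RPM in WT, 23.8 and 24.1 in KO4 and 19.0 and 20.1 in KO8. KO4 overlapped WT and KO8 was below it, at 0.75 times (log2 −0.41 ± 0.11 SE). CM libraries held 55.1 and 55.8 in WT, 28.6 and 26.5 in KO4 and 46.0 and 43.5 in KO8. Both clones were below WT, KO4 at 0.50 times (−1.01 ± 0.09) and KO8 at 0.81 times (−0.31 ± 0.08). In naive cells and NPCs the clones' base means were 1.03-fold and 1.01-fold apart.

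**Figure D5:**
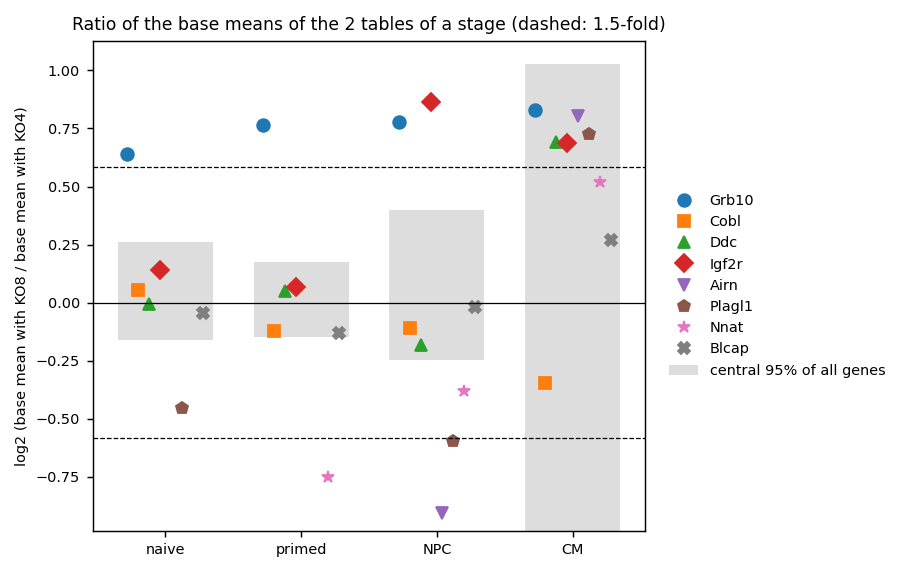
log2 ratio of the base mean with KO8 to that with KO4 libraries, by stage, for members that reach a base mean of 100 in either table; grey boxes span the central 95% of all such genes and dashed lines mark 1.5-fold. Grb10 is above the upper dashed line at every stage, Plagl1 (naive and NPC) and Nnat (primed and NPC) are below 0 at the other stages where they are shown and above it in CMs, and in CMs every member shown lies inside the grey box.

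Of the members fitted by limma at each stage (mean of at least 10 normalised reads), the threshold of adjusted p under 0.05 was passed by 1 of 1 for KO4 at the naive stage, 2 of 4 at the primed, 2 of 3 at the NPC and 5 of 5 at the CM stage. The share over all genes fitted was 20.9%, 19.5%, 17.8% and 52.4%. For KO8 it was passed by 0 of 1, 2 of 4, 0 of 3 and 4 of 5 at these stages, with 19.7%, 16.2%, 7.63% and 24.2% of all genes. In naive cells and NPCs 0 members of KO8 also had an unadjusted p under 0.05, and limma-voom called 0, but in NPCs 1 was called without library 1 of KO8. In primed cells of KO8, 1 was called by limma-voom, with a minimum mean of 1 or without any 1 library, and 0 without a filter on low reads. In NPCs of KO4, 1 was called without library 1 of WT or of KO4, without a filter, or with all 3 groups in 1 fit. In CMs of KO4, 3 and 2 were called without WT library 1 and 2, and 4 without KO4 library 2. In CMs of KO8, 1 and 2 were called without KO8 library 1 and 2, and 3 with all 3 groups in 1 fit. Since the members were chosen on these contrasts, and members entered the fit only below a base mean limit, nothing is read from the counts.

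The changes of WT cells between stages were not used to choose the members and could be tested, within the limits given here, for genes with reads at both stages. Each stage was normalised on its own and the genes with reads are the lower ones, so the median of all genes moved by 0.67 on the log2 scale from naive to primed cells, 0.62 from primed cells to NPCs and 0.38 from primed cells to CMs. Members are read against these shifts. By limma 44% of 3446 genes passed the threshold from naive to primed cells, 78% of 9036 from primed cells to NPCs and 73% of 9077 from primed cells to CMs.

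From naive to primed WT cells Nnat rose by 2.46 ± 0.23 on the log2 scale (limma, adjusted p = 0.0001989, n = 3 and 2), and by 1.27 to 1.82 under other scalings. Airn (−0.74 ± 0.44, adjusted p = 0.2105 by limma) and Slc22a3 (0.89 ± 0.48, adjusted p = 0.1747) did not pass, both resting on at most 4 reads per stage. Airn and Slc22a3 were in this fit only because of their reads in NPCs and CMs.

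Airn rose from 0 reads in primed WT cells to 140 reads over both NPC libraries, at least 24.4-fold, and to 304 over both CM libraries, at least 47.5-fold, taking 3 counts in each primed library as the floor. The adjusted p by limma was 3.088e-07 and 1.515e-07. Slc22a3 rose from 2 reads to 61 in NPCs, a ratio of 32.0 (95% counting interval 8.48 to 270), and to 58 in CMs, a ratio of 27.3 (7.22 to 231), with adjusted p of 1.648e-05 and 2.588e-05. Both genes of the Igf2r locus thus went from a few reads to a measurable level in both differentiated cultures. The base means of Igf2r were also higher there. The minimum mean was taken over WT libraries of all stages, so Airn and Slc22a3 entered the fit only through their NPC and CM reads. Their adjusted p-values are thus those of genes kept for being high there. Without a filter on low reads, 3 of 4 members were called from primed cells to NPCs, against 3 of 3 with it. From primed cells to CMs it was 4 of 5, against 4 of 4.

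Blcap was higher in CMs than in primed WT cells by 1.09 ± 0.10 on the log2 scale (limma, adjusted p = 1.406e-05), above the shift of all genes. Ddc was lower in CMs by 1.25 ± 0.13 (log2 change −1.25, adjusted p = 1.415e-05). In NPCs Ddc was 0.67 ± 0.13 above primed cells (limma, adjusted p = 0.0009813), which is the shift of all genes, and under other scalings it changed by 0.25, −0.001 and 0.14 and lost its call. Zfp512b differed by 0.13 ± 0.08 between CMs and primed WT cells (adjusted p = 0.166), with the opposite sign under other scalings (−0.16, −0.36 and −0.16).

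Other genes near the members on the chromosome were set beside them. In naive cells 2 such neighbours of Grb10, 8 of Igf2r, 8 of Plagl1 and 10 of Nnat had a base mean of at least 100. None of them differed 1.5-fold between the 2 tables there (KO8 to KO4 ratios from 0.934 to 1.20), nor did any in primed cells (0.863 to 1.09) or NPCs (0.952 to 1.15). In CMs 1 of 3 neighbours of Grb10, at a ratio of 8.07, and 1 of 10 of Nnat, at 2.10, were past that fold. Over all genes the share past it was 0.403% in naive cells, 0.131% in primed cells, 1.08% in NPCs and 11.8% in CMs. With so few neighbours, nothing is read from these counts. Against WT, Fuca2, a fucosidase gene near Plagl1, fell in NPCs of both clones, by 1.41 ± 0.15 and 1.14 ± 0.16 on the log2 scale (limma, adjusted p = 4.101e-08 and 0.009554). Of 6 neighbours of Plagl1 fitted in NPCs, 2 were called lower in KO4 and 1 in KO8, beside 17.8% and 7.63% of all genes called. Soga1 near Nnat rose in primed cells of both clones, by 0.73 ± 0.10 and 0.63 ± 0.10. Agpat4, in the Igf2r neighbourhood, fell in primed cells by 0.39 ± 0.10 in KO4 and 0.34 ± 0.11 in KO8. In primed cells of each clone, 1 of 5 fitted neighbours of Nnat was called higher and 1 lower, and 1 of 3 of Igf2r lower. Of all genes 19.5% in KO4 and 16.2% in KO8 were called there. In CMs Stx11 near Plagl1 fell in both clones, with log2 changes of −2.19 ± 0.31 and −0.88 ± 0.24, and Acat3 near Igf2r rose, by 1.576 ± 0.51 and 1.595 ± 0.51. Of fitted neighbours of Plagl1 in CMs, 2 of 5 were called lower in KO4 and 1 of 5 in KO8. Of those of Igf2r, 2 of 3 were called higher in KO4 and 2 of 5 in KO8. These counts stand beside 52.4% and 24.2% of all genes called.

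Genes of insulin and IGF signalling, in which Grb10 and Igf2r act, were fitted in part (37 listed). In primed cells 4 of 17 rose and 3 fell in KO4, and 5 rose and 2 fell in KO8, with a list median of 0.07 and 0.12 against −0.03 for all genes in both comparisons. Of all genes 19.5% were called there in KO4 and 16.2% in KO8. The secreted binding proteins Igfbp5 and Igfbp4 fell in both clones, Igfbp5 by 0.93 ± 0.30 and 1.22 ± 0.33 and Igfbp4 by 0.84 ± 0.18 and 0.80 ± 0.18 on the log2 scale. The insulin receptor gene Insr rose by 0.63 ± 0.10 and 0.58 ± 0.11. Igf2, the imprinted ligand that IGF2R clears, rose in naive cells by 1.891 ± 0.24 in KO4 and 1.455 ± 0.27 in KO8 (limma, adjusted p = 1.468e-07 and 0.00015).

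In NPCs 2 of 7 genes of this list rose and 3 fell in KO4, and 0 rose and 1 fell in KO8, with log2 changes of −1.72 ± 0.17 and −2.65 ± 0.20 for Igfbp6, which was lower in both. Of all genes 17.8% were called in KO4 and 7.63% in KO8 in NPCs, and 52.4% and 24.2% in CMs. In CMs 1 of 5 genes of this list rose and 3 fell in KO4, and 2 rose and 2 fell in KO8. The ligand gene Igf1 fell in both clones there, with log2 changes of −6.27 ± 0.31 in KO4 and −0.37 ± 0.09 in KO8. Grb7, an adaptor related to Grb10, rose by 0.29 ± 0.11 and 0.64 ± 0.10, and Foxo1, a transcription factor held back by insulin signalling, changed by −0.40 ± 0.10 and −0.37 ± 0.10.

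Genes of mannose 6-phosphate sorting (20 listed), the route IGF2R serves, were fitted for few members. In primed cells 3 of 6 fell in each clone and 0 rose, with a list median of −0.23 in KO4 and −0.20 in KO8. Of all genes 19.5% and 16.2% were called in these comparisons. Hexa, a lysosomal enzyme gene, fell in both, by 0.24 ± 0.08 and 0.29 ± 0.08. The base mean ratios of all 20 genes between the clones' tables lay within 0.958 to 1.11 in naive cells, 0.940 to 1.04 in primed cells, 0.956 to 1.12 in NPCs and 0.766 to 1.35 in CMs.

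Of 23 genes that keep or erase imprints, 4 were fitted in primed cells. Tet3, which oxidises methylated cytosine, rose by 0.42 ± 0.12 in KO4 and 0.35 ± 0.12 in KO8, and Dppa3, which protects maternal methylation in the zygote, fell by 0.34 ± 0.11 and 0.33 ± 0.11. In CMs 4 of 5 rose and 1 fell in KO4, and 0 rose and 3 fell in KO8, beside 52.4% and 24.2% of all genes called. Of 5 naive markers fitted there, 4 were called higher and 1 lower in KO4, and 5 lower in KO8, and a link between the 2 lists was not tested.

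Other imprinted genes were also set beside the members. Of those expressed from the paternal copy (31 listed, 29 in the tables), 7 of 15 fitted rose in primed KO4 cells and 1 fell, with a median log2 change of 0.83, and in KO8 1 of 14 rose and 0 fell, with a median of 0.10. In NPCs 7 of 10 rose in KO4 (median 0.81) and 1 of 10 in KO8 (median 0.23), and in CMs 6 of 11 rose and 3 fell in KO4 (median 0.47) and 2 of 12 rose and 1 fell in KO8 (median 0.13). Of those expressed from the maternal copy (28 listed), 1 of 14 rose and 2 fell in primed KO4 cells, and 2 of 15 rose and 3 fell in KO8, with medians of 0.07 and 0.08. In NPCs 1 of 14 rose and 5 fell in KO4 (median −0.36), while in KO8 limma and limma-voom called 0 of 14 and 2 had an unadjusted p under 0.05 (median −0.09). In CMs 3 of 17 rose and 10 fell in KO4 (median −1.04), and 4 rose and 2 fell in KO8 (median −0.001), beside 52.4% and 24.2% of all genes. The share called over all genes was 19.5% in KO4 and 16.2% in KO8 in primed cells, and 17.8% and 7.63% in NPCs. The lists were compiled with results of these tables known, and whether the clones differ over a list was not tested. Ndn was called higher in primed cells of both clones, by 0.86 ± 0.17 and 0.52 ± 0.18, and Peg13 in NPCs of both, by 1.22 ± 0.20 and 1.63 ± 0.25. Of the maternally expressed genes, Slc22a18 and Trappc9 were called lower in primed cells of both clones, with log2 changes of −0.82 ± 0.27 and −0.94 ± 0.29 for Slc22a18 and −0.44 ± 0.09 and −0.36 ± 0.09 for Trappc9. Pon3 and Osbpl5 were called lower in CMs of both, at −4.28 ± 0.28 and −0.67 ± 0.19 for Pon3 and −1.375 ± 0.13 and −0.49 ± 0.13 for Osbpl5.

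Over the 8 base means, which share WT libraries within a stage and differ mainly by stage, the genes whose log2 level ran most like that of Grb10 among 18499 were Slc35f3, Bcr and Tbca (Pearson r = 0.989, 0.988 and 0.988). They were Bex2, Kcnc4 and 1700009N14Rik for Igf2r (0.996, 0.995 and 0.995), Vcpip1, Caskin2 and Slc25a44 for Plagl1 (0.998, 0.997 and 0.997), and Pitpnm2, Gm3500 and Kctd12 for Nnat (0.996 each). Between members r was 0.960 for Grb10 and Nnat, 0.904 for Grb10 and Igf2r, 0.889 for Igf2r and Airn, −0.782 for Grb10 and Cobl, and 0.682 for Plagl1 and Nnat.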

How the data were processed

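Per the labels and the paper's methods, the authors trimmed reads with Trim Galore 0.6.7, aligned them to mm9 with HISAT2 2.2, counted them per gene with featureCounts (strand and multimapping settings not given in the sources used here) and compared each clone with WT, stage by stage, in DESeq2 1.46.0. The 8 deposited tables list 25209 genes. Only the base mean was used, a normalised signal that the authors averaged over the libraries compared. The other 5 columns hold the authors' log2 fold changes, standard errors, Wald statistics, p-values and adjusted p-values and were not used.

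Genes with 1 read in 1 library show that library's size factor. With all size factors known, reads per library are the whole numbers that give both base means of a stage, and a gene was accepted where at most 0.01 chance solutions were expected. Where several sets gave both base means, sets with alike replicates and small changes of the clones from WT were preferred. Chance solutions were counted only where they were at least as good by this rule. Spreads and SEs of recovered genes rest on this preference. WT libraries are those present in both tables, and recovered libraries carry no replicate number. Whole reads were recovered for 7658 genes in naive cells, 14557 in primed cells, 14604 in NPCs and 14146 in CMs. Tested on simulated data, the recovery was wrong for 1 of 48544 genes. It was tested there with few changed genes, all in KO4 and by at most 1 on the log2 scale. It was not tested on genes with larger changes or with changes in KO8. It missed more of the genes with a wide spread between replicates (74.8% to 82.2% recovered, against 97.6% to 99.5% of all), so the genes fitted hold fewer variable ones.

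Recovered reads were fitted with limma 3.58.1 (R 4.3.3) as log2(reads divided by size factor + 1) with an intensity trend, for genes with a mean of at least 10 normalised reads, with Benjamini-Hochberg adjustment over all genes fitted and a threshold of 0.05. Genes simulated with a change of 1 on the log2 scale were called in 75% of cases in naive cells, 28% in primed cells, 31% in NPCs and 62% in CMs (KO4 against WT). Few genes changed in the simulation, which makes the adjusted threshold stricter than in the data. These shares therefore do not give the power of the real fits. With 2 or 3 libraries per group, a missing call is not read as no change. Only the 2 groups compared entered a fit of a clone, and WT libraries of all 4 stages entered the fit of stages. Positions came from an mm9 annotation and promoter windows from the mm9 genome. Python 3.11.15 and numpy 2.4.6 were used for the rest.

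All 10 members are named, with Zfp512b as the check of the target, the 3 genes most alike to each of 4 members, and up to 3 genes per list with the largest change among those called higher, or lower, in both clones. Cell type marker lists are given by their sums. Genes named from them show what a sum rests on and were not picked by this rule. Likeness was taken over 8 base means in place of group means of recovered reads, since 6 of the 10 members had no reads recovered in naive cells. The members, the lists and the tests were chosen with earlier results of these data known. A result of the mannose 6-phosphate sorting list that this rule names is not reported here.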

Additional observations from a re-analysis of the deposited data

Results flagged for a closer look

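Some members lay on opposite sides of WT in the clones or at different stages, and none of these differences was itself tested. In NPCs Ddc was at 1.16 times WT in KO4 and 0.90 times WT in KO8, and in CMs at 0.57 times in KO4 and 1.54 times in KO8, with all libraries of a clone on 1 side of both WT libraries. Within KO4 Ddc thus lay above WT in NPCs and below it in CMs. Within KO8 it lay above WT in primed cells (1.09 times) and CMs and below it in NPCs. Airn in KO4 was at 2.76 times WT in NPCs and at 0.108 times in CMs. The NPC values of Ddc in both clones and the primed value in KO8 did not pass the limma threshold, and in NPCs the higher KO8 library was under the lower WT library by little (27.096 against 27.113 RPM). Slc22a3 in CMs was at 0.15 times WT in KO4 and 2.62 times in KO8. Both clones are set against the same WT pair.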

How the results depend on the processing

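No paired analysis was possible because the recovered libraries carry no replicate numbers, so the replicate block could not be fitted. Of the counts of genes called, 124 values under other settings stayed within 1.5 times the main one and 17 did not. Primed KO4 (1798 genes) came to 724 with a minimum mean of 1, to 507 without a filter and to 1139 to 1457 with a library left out. Primed KO8 (1487) came to 738 without a filter and 848 to 1096 with a library left out. NPC KO4 (1676) came to 747 in a fit of all 3 groups. NPC KO8 (728) came to 471 without a filter, 265 with limma-voom, 1129 with all 3 groups and 0 to 2170 with a library left out, the 0 standing for either WT library left out (1063 and 1319 genes at an unadjusted p under 0.05). The counts ran from 285 to 500 for naive KO8 (470), 3069 to 3943 for CM KO4 (4784) and 1356 to 2551 for CM KO8 (2210). The cause was not tested, beyond fewer samples in the latter.

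Among single members 512 values stayed close to the main one, which for a clone against WT means within the SD between libraries, whether or not the call held, and for WT stages the same direction and side of the threshold. Calls of members against WT were lost in CMs of both clones, primed cells of KO8 and NPCs of KO4, as given with their counts. Against primed WT cells the NPC change of Ddc (0.67) was −0.00103 with upper-quartile scaling, and that of Zfp512b in CMs (0.13) was −0.1605, −0.3556 and −0.1591 with total reads, upper-quartile and median-of-ratios scaling. The naive base mean ratio of Ddc (0.9962) was 1.001 with summed base means as the scale. From naive to primed WT cells Airn passed at −1.116 without WT library 3 of the naive stage, and Slc22a3 at 1.777 without WT library 2 of the primed stage. With upper-quartile scaling Blcap in CMs of KO4 (−1.01) was at −0.89.

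The share of called genes that were higher moved by over 10 percentage points with scaling in naive KO8 (69.6% against 54.7% and 54.0%), primed KO4 (41.0% against 57.5%), primed KO8 (49.7% against 62.2%) and all 3 WT stage comparisons. Highly expressed members have no library values at all, which limits Grb10 and Igf2r at every stage to a comparison of the clones.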
